A study of Homo sapiens with 12 samples.

Results

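The genes described here are 10 keratin genes of a human breast cancer cell line, out of 34602 gene symbols of the authors' deposited table of mRNA stability. They were chosen by symbol: the luminal keratins KRT7, KRT8, KRT18 and KRT19, the basal keratins KRT5, KRT14 and KRT17, and KRT80, KRT81 and KRT86. All 10 were present. The cells were MDA-MB-231, a triple-negative line of mesenchymal character, stably over-expressing a tRNA-Glu (anticodon UUC) or a tRNA-Arg (anticodon CCG), beside a mock line. Each line received α-amanitin, an inhibitor of RNA polymerase II, at a dose of 10 µg/mL, and total RNA taken at 0 or 9 h was run on Illumina expression BeadChips. There were 2 arrays for each of the tRNA-Glu, tRNA-Arg and mock lines at 9 h and at 0 h, 12 in all. The labels do not say how the over-expressing lines were selected, whether they were clones, or whether replicates were separate cultures. The question in the series' title is how the 2 tRNAs affect mRNA stability.

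Keratins form the intermediate filaments of epithelial cells. A filament is built from pairs of a type I and a type II keratin, so the genes are usually expressed in partner pairs such as KRT8 with KRT18 in simple and luminal epithelium and KRT5 with KRT14 in basal cells. In breast tumours keratins are used to tell luminal from basal cells, and mesenchymal-type lines carry vimentin filaments beside their keratins. When polymerase II is blocked, the mRNA left after some hours depends on how fast it decays, and a long-lived mRNA is lost slowly.

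The authors' deposited table gives 1 signed score per gene for the tRNA-Glu line against control and 1 for the tRNA-Arg line against control. The authors' sources used here state neither the formula of the score nor its scale or log base. Going by the column names, a score above 0 is taken to mean a longer-lived mRNA with the tRNA than in control cells. The table holds no replicate, error or p-value, so the scores below are values and ranks and none was tested. Both columns are set against the same control. Over the authors' deposited table the SD over all genes was 0.135 for tRNA-Glu and 0.0846 for tRNA-Arg, a ratio of 1.59. For some keratins scores are therefore also given as multiples of the SD of their line. A gene is called low or high here when its score is in the lowest or highest 5% of all symbols of that line, which by construction holds 5% of them. Over the authors' deposited table these limits were -0.192 and 0.203 for tRNA-Glu, and -0.127 and 0.132 for tRNA-Arg. Array values are deposited by probe, and no table used here pairs probes with genes, so the level of each keratin in each sample is not analysed here and the epithelial or mesenchymal state of the lines was not checked. In RNA from a whole culture, fewer keratin-positive cells and less keratin mRNA per cell cannot be told apart. Mean non-normalized intensity over 47231 probes was 497 to 525 on the 6 arrays at 9 h, against 533 to 606 on the 6 arrays at 0 h.

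For the tRNA-Glu line, 4 of the 10 keratins were low and 0 were high per the authors' deposited table, where each tail holds 5% of all genes. The low ones were KRT19, KRT80, KRT81 and KRT86. The median of the 10 scores was -0.0759, beside 0.00489 over all genes, and 8 of the 10 were below 0 per the authors' deposited table. Of the 4 low keratins, KRT81 and KRT86 lay close to the limit and were not low when symbols with placeholder names were left out of the ranking, as given below. For the tRNA-Arg line, 2 were low (KRT19 and KRT81) and 1 was high (KRT8) per the authors' deposited table, where each tail again holds 5%. The median there was -0.0649, beside 0.00166 over all genes, with 6 of 10 below 0 per the authors' deposited table. Without KRT81 and KRT86, close copies of each other, the tRNA-Arg median was -0.0250, and the mean of all 10 was -0.0335, per the authors' deposited table. For tRNA-Glu the mean was -0.185 per the authors' deposited table. With tails of 2.5% of all genes, 2 keratins (KRT19 and KRT80) were low for tRNA-Glu, and KRT81 alone was low and 0 were high for tRNA-Arg, per the authors' deposited table. With tails of 10%, 4 were low for tRNA-Glu, and 3 were low and 1 was high for tRNA-Arg, per the authors' deposited table. The members were chosen with earlier results of these data known, and no list test was made.

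**Figure D1:**
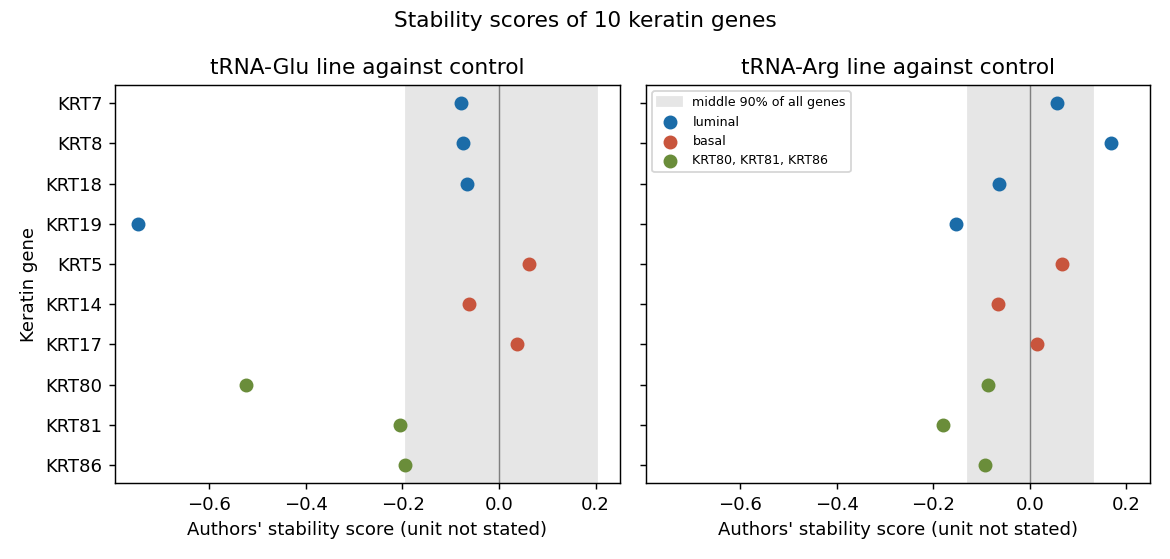
Stability score of each of the 10 keratin genes (x axis, unit not stated) in the tRNA-Glu line (left) and the tRNA-Arg line (right), each against control. Points are single deposited values without error, coloured by class, and the grey band holds the middle 90% of all genes. KRT19 at -0.748 and KRT80 at -0.524 lie far left of the band for tRNA-Glu, and KRT8 at 0.168 lies right of it for tRNA-Arg.

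Among the luminal keratins, KRT19 stood apart for tRNA-Glu. KRT19 is the smallest type I keratin and lacks the tail domain that other keratins have, and it is widely used to detect epithelial tumour cells. Its score from the authors' deposited table was -0.748 for tRNA-Glu and -0.152 for tRNA-Arg. That placed KRT19 at rank 44 from the lowest of 34602 genes for tRNA-Glu (percentile 0.127) and at rank 1125 (percentile 3.25) for tRNA-Arg per the authors' deposited table. In multiples of the line's SD KRT19 had -5.56 for tRNA-Glu and -1.79 for tRNA-Arg per the authors' deposited table.

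The other 3 luminal keratins had nearly equal scores for tRNA-Glu. KRT7, a type II keratin of simple and glandular ducts, had -0.0777 for tRNA-Glu and 0.0571 for tRNA-Arg per the authors' deposited table, at percentiles 15.2 and 80.1. KRT8, the main type II keratin of simple epithelium, had -0.0741 for tRNA-Glu and 0.168 for tRNA-Arg per the authors' deposited table. These were percentiles 16.04 and 97.3 for KRT8, and 0.168 was the highest tRNA-Arg score of all 54 keratin genes per the authors' deposited table. Its partner KRT18, a type I keratin, had -0.0657 for tRNA-Glu and -0.0645 for tRNA-Arg per the authors' deposited table, at percentiles 18.3 and 16.1. The partners KRT8 and KRT18 thus had close values for tRNA-Glu and values of opposite sign for tRNA-Arg. The raw score for tRNA-Glu minus that for tRNA-Arg was -0.242 for KRT8 and -0.00120 for KRT18 per the authors' deposited table. This difference was not tested and takes no account of the unequal SD of the 2 lines. In multiples of the line's SD, KRT8 had -0.551 for tRNA-Glu and 1.99 for tRNA-Arg per the authors' deposited table. On that scale KRT18 had -0.488 for tRNA-Glu and -0.762 for tRNA-Arg per the authors' deposited table.

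The basal keratins all lay in the middle 90% of genes for both lines. KRT5, the type II keratin of basal cells, had 0.0624 for tRNA-Glu and 0.0661 for tRNA-Arg per the authors' deposited table, at percentiles 77.5 and 83.1. KRT14, its type I partner, had -0.0622 for tRNA-Glu and -0.0653 for tRNA-Arg per the authors' deposited table, at percentiles 19.3 and 15.9. The pair KRT5 and KRT14 therefore had scores of similar size and opposite sign. KRT17, a type I keratin induced in wounded and proliferating epithelium, had 0.0368 for tRNA-Glu and 0.0145 for tRNA-Arg per the authors' deposited table, at percentiles 67.0 and 58.4. The median of the 3 basal keratins was 0.0368 for tRNA-Glu and 0.0145 for tRNA-Arg, and that of the 4 luminal keratins was -0.0759 and -0.00367, per the authors' deposited table. The basal median is the score of KRT17 alone in each line. Luminal scores for tRNA-Arg ran from -0.152 to 0.168 per the authors' deposited table. A difference between the 2 classes was not tested.

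KRT80, KRT81 and KRT86 are type II keratins outside the classical luminal and basal pairs. KRT80, found in many epithelia near the desmosomes and cell margins, had -0.524 for tRNA-Glu and -0.0871 for tRNA-Arg per the authors' deposited table. KRT80 was at percentile 0.581 for tRNA-Glu and 10.3 for tRNA-Arg, or -3.89 and -1.03 in multiples of the SD, per the authors' deposited table. KRT81, a hair keratin, had -0.206 for tRNA-Glu and -0.180 for tRNA-Arg per the authors' deposited table. KRT81 was at percentile 4.55 for tRNA-Glu and 2.20 for tRNA-Arg, and its tRNA-Arg score was the lowest of all 54 keratin genes per the authors' deposited table. KRT86, also a hair keratin, had -0.194 for tRNA-Glu and -0.0923 for tRNA-Arg per the authors' deposited table, at percentiles 4.95 and 9.26.

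KRT81 and KRT86 are close copies, so a probe may not separate them and the 2 scores may not be independent. Their sequence identity was not computed here. RefSeq (GRCh38.p14) places KRT81 inside the span of KRT86, a comparison of positions that took no account of strand. KRTHB6, which RefSeq lists as an older symbol of KRT86, has an entry of its own. KRTHB6 had -0.00462 for tRNA-Glu and -0.0150 for tRNA-Arg per the authors' deposited table, at percentiles 44.7 and 39.3. The entries under KRT86 and KRTHB6 therefore differed, one low and one near the middle for tRNA-Glu.

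The other 44 keratin genes in the table, 24 of type I and 20 of type II, gave a narrower spread. None of the 44 was low or high for tRNA-Glu, and 0 were low and 2 high for tRNA-Arg, per the authors' deposited table. Each tail holds 5% of all genes. Their scores for tRNA-Glu ran from -0.0846 (KRT35, a hair keratin) to 0.172 (KRT15, a type I keratin of basal cells) per the authors' deposited table. KRT19, KRT80, KRT81 and KRT86 were the 4 lowest of all 54 keratin genes for tRNA-Glu per the authors' deposited table, all below KRT35. These 4 belong to the members, which were chosen with earlier results of these data known. The contrast between the members and the 44 is therefore description only and was not tested. The 2 high ones for tRNA-Arg were KRT10, a keratin of differentiating epidermis, at 0.162 and the hair keratin KRT31 at 0.134 per the authors' deposited table. The median of the 44 was -0.00472 for tRNA-Glu and -0.00685 for tRNA-Arg per the authors' deposited table. The array levels of these 44 genes are not analysed here.

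**Figure D2:**
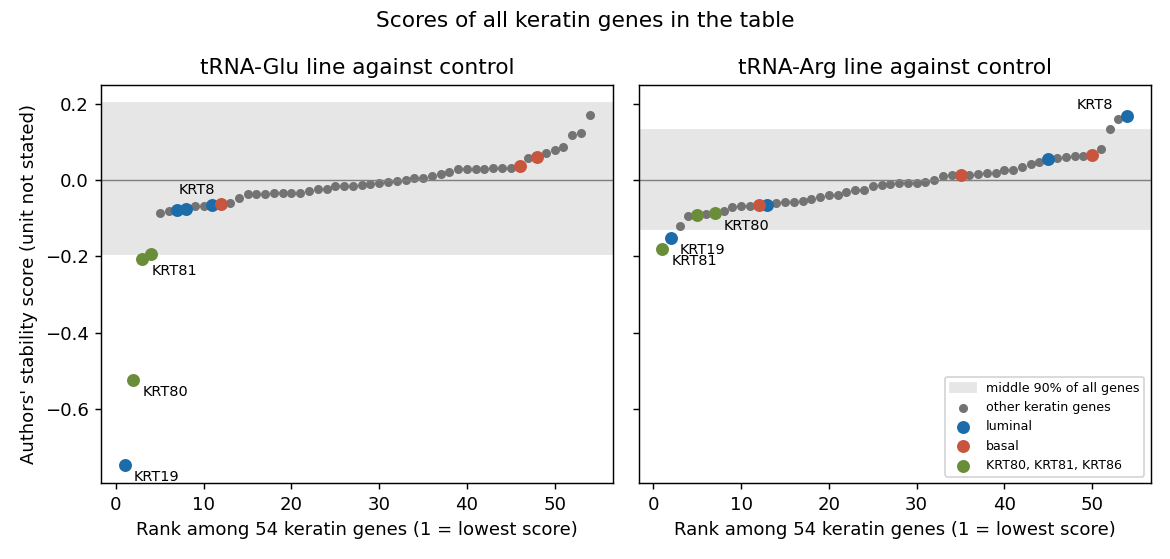
Stability score (y axis, unit not stated) of all 54 keratin genes, ordered by score, for the tRNA-Glu line (left) and the tRNA-Arg line (right), each against control. The 10 keratins described are coloured by class, the other 44 are grey, and the grey band holds the middle 90% of all genes. For tRNA-Glu the 4 lowest points are KRT19, KRT80, KRT81 and KRT86, and for tRNA-Arg KRT81 is lowest and KRT8 highest. The coloured keratins were chosen with earlier results of these data known.

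Keratin pseudogenes were spread on both sides. Of the 15 found, 2 are copies of KRT8 and 11 are copies of KRT18, which a probe for those genes may also detect. For tRNA-Glu, 2 of 15 were low and 2 high per the authors' deposited table, where each tail holds 5% of all genes. For tRNA-Arg, 0 were low and 2 high per the authors' deposited table. KRT8P9 had -0.404 and KRT8P15 had -0.0991 for tRNA-Glu per the authors' deposited table, against -0.0741 for KRT8 itself. For tRNA-Arg, KRT8P9 had -0.0347 and KRT8P15 had -0.102 per the authors' deposited table, whereas KRT8 had 0.168. The 11 KRT18 pseudogenes had a median of 0.0102 for tRNA-Glu and -0.00420 for tRNA-Arg per the authors' deposited table. They ran for tRNA-Glu from -0.307 (KRT18P13) to 0.295 (KRT18P28) per the authors' deposited table. For each line the KRT8 entry thus lay above KRT8P9 and KRT8P15, and the KRT18 entry lay inside the range of its 11 copies.

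Of 15 other intermediate filament genes, 1 was low and 1 high for tRNA-Glu, and 0 were low and 1 high for tRNA-Arg, per the authors' deposited table, counts near the share that the tails hold of all genes. LMNA, which encodes lamins A and C of the nuclear lamina, had -0.213 for tRNA-Glu and -0.0160 for tRNA-Arg, and the lamin gene LMNB2 had 0.264 for tRNA-Glu and 0.240 for tRNA-Arg, per the authors' deposited table. VIM, the vimentin gene, had -0.0637 for tRNA-Glu and -0.0661 for tRNA-Arg per the authors' deposited table, close to KRT18 at -0.0657 and -0.0645.

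Genes of the junctions and linkers that anchor keratin filaments also gave counts near that share. Of 22 found, 1 was low and 1 high for tRNA-Glu, and 2 were low and 1 high for tRNA-Arg, per the authors' deposited table. TCHP, which encodes the keratin-binding protein trichoplein, had -0.339 for tRNA-Glu and -0.133 for tRNA-Arg per the authors' deposited table. ITGA6, a hemidesmosome integrin subunit, had -0.187 for tRNA-Glu and -0.200 for tRNA-Arg per the authors' deposited table. EVPL, which encodes envoplakin, a plakin that links keratin to desmosomes, had 0.213 for tRNA-Glu and 0.276 for tRNA-Arg per the authors' deposited table.

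Non-keratin markers of the same cell types were set beside the keratins. The counts below stand beside tails that each hold 5% of all genes, and none was tested. Of 19 luminal markers, 1 was low and 0 were high for tRNA-Glu, with a median of 0.00532, per the authors' deposited table. The low one was CLDN7, a tight junction claudin, at -0.384, with -0.0824 for tRNA-Arg, per the authors' deposited table. For tRNA-Arg 1 of the 19 was low and 0 were high, with a median of 0.0271, per the authors' deposited table. That low one was the epithelial transcription factor SPDEF at -0.196, with 0.0556 for tRNA-Glu, per the authors' deposited table. Of 12 basal markers, 2 were low and 1 high for tRNA-Glu, and 1 was low and 0 were high for tRNA-Arg, per the authors' deposited table. Their median was 0.00718 for tRNA-Glu and 0.00140 for tRNA-Arg per the authors' deposited table. The 2 low ones for tRNA-Glu were SFN and LAMB3, and LAMB3 had -0.245 for tRNA-Glu and -0.00617 for tRNA-Arg, per the authors' deposited table. SFN, the 14-3-3 sigma gene of epithelial cells, had -0.666 for tRNA-Glu and -0.218 for tRNA-Arg per the authors' deposited table. FSCN1, an actin-bundling protein, had 0.302 for tRNA-Glu and -0.0198 for tRNA-Arg per the authors' deposited table. Of 10 mesenchymal markers 1 was low for tRNA-Glu, 2 were low for tRNA-Arg and 0 were high for either line per the authors' deposited table. The median of these 10 was -0.00931 for tRNA-Glu and 0.00815 for tRNA-Arg per the authors' deposited table. The transcription factor SNAI2 had -0.463 for tRNA-Glu and -0.280 for tRNA-Arg, and its relative SNAI1 had -0.172 and -0.166, per the authors' deposited table. Of 7 markers of blood and other cell types, 0 were low and 0 high for either line per the authors' deposited table.

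**Figure D3:**
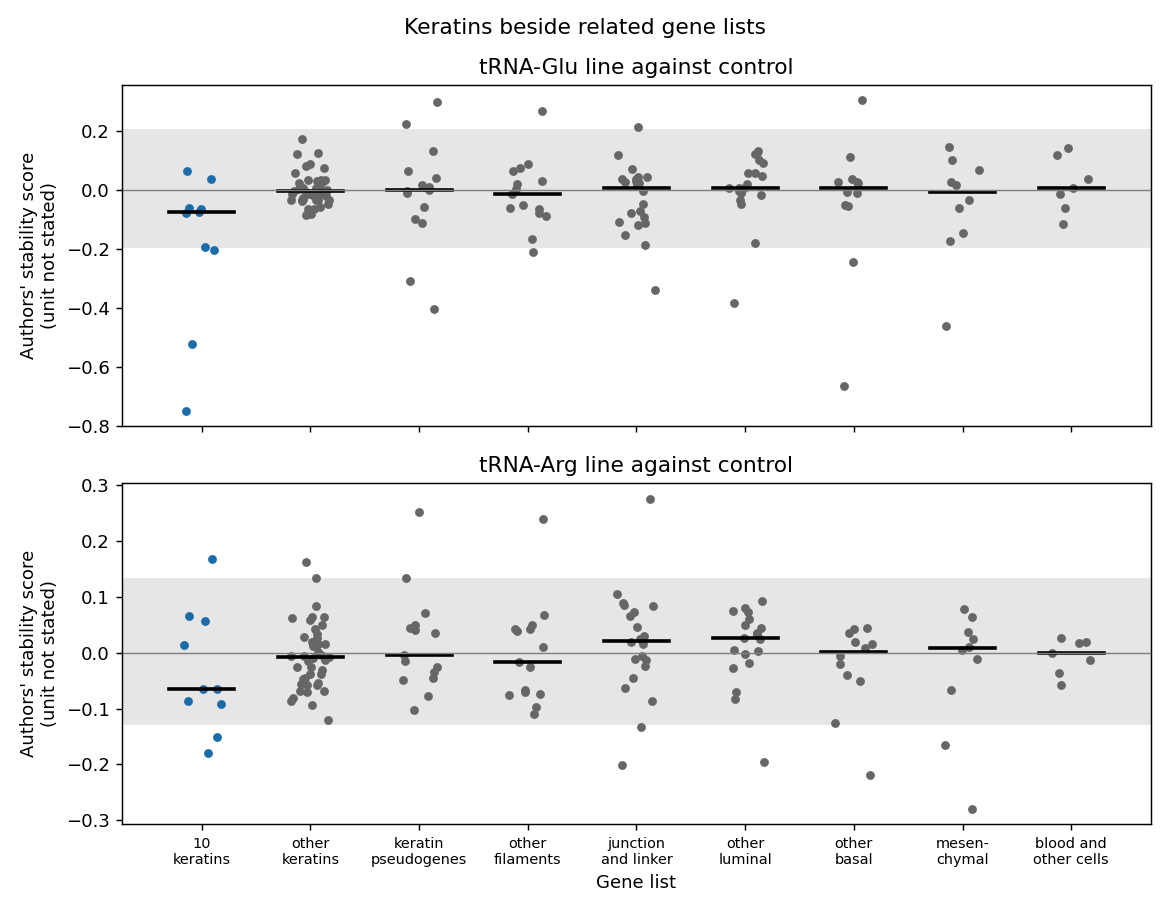
Stability scores (y axis, unit not stated, with a separate range for each panel) of the 10 keratins and 8 related gene lists for the tRNA-Glu line (top) and the tRNA-Arg line (bottom), each against control. Points are genes, spread sideways for clarity, bars are medians, and the grey band holds the middle 90% of all genes. The keratin median is -0.0759 for tRNA-Glu and -0.0649 for tRNA-Arg (-0.0250 without KRT81 and KRT86), while KRT19 at -0.748 is the lowest point shown for tRNA-Glu.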

How the data were processed

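The 12 arrays fall into 6 groups of 2, as the sample titles give them. The values described are from the authors' deposited table, 1 stability score for each gene and tRNA line. How probes and arrays were combined into a score is not given in the sources used here. Of tools, only lumi is named per the submitters' processing notes, without version or step. The deposited probe tables hold intensity values, non-normalized in one per the file headers and taken here as normalized by the authors in the other. A further 12 per-sample columns of the non-normalized table, detection values headed by a chip position, were not used.

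Each of the 34602 scores was compared with a difference of differences of group mean logs, computed from the authors' processed intensity values. Within 1e-08, log2, natural log and log10 matched between 0.153% and 0.344% of scores, so the formula was not recovered, and no gene was assigned to a probe. The probe tests by limma in the planned design were not run, since no table used here pairs probes with genes. Percentiles give the share of symbols at or below a score, and the calculation was tested on simulated data. All 10 keratins are named, and from each other list genes among the 2 lowest and 2 highest scores of a line. KRTHB6 and the list of keratin pseudogenes were added after their values were seen. VIM was in the planned lists, but it was named outside that rule after its values were seen. PLEC (listed under PLEC1) and ESRP1 had no entry under those symbols. Some items of the planned marker lists are not reported here, and counts and medians of those lists leave them out. The keratins and lists were chosen with earlier results of these data known. With single scores and an unknown depth of measurement, no interval can be given. Alternatives changed the ranking background, the share called low or high, the scale and the members summarised. Tools were Python 3.11.15, pandas 2.3.3, numpy 2.4.6 and matplotlib 3.10.9.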

Additional observations from a re-analysis of the deposited data

How the results depend on the processing

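With placeholder names left out, 19505 symbols remained, and the number of low keratins for tRNA-Glu became 2 in place of 4, with KRT81 at percentile 6.57 and KRT86 at 7.15. KRT19 and KRT80 stayed low at percentiles 0.149 and 0.759, and for tRNA-Arg KRT19, KRT81 and KRT8 kept their calls. With tails of 2.5% in place of 5%, 2 keratins were low for tRNA-Glu, and 1 was low and 0 high for tRNA-Arg. The mean in place of the median was -0.185 for tRNA-Glu and -0.0335 for tRNA-Arg. Without KRT81 and KRT86 the median was -0.0699 for tRNA-Glu and -0.0250 for tRNA-Arg. Leaving out each keratin in turn gave medians of -0.0777 to -0.0741 for tRNA-Glu and -0.0653 to -0.0645 for tRNA-Arg. Such a median can only equal a middle score of the list, so this narrow range says little about how firm the median is. All these values come from the authors' deposited table. No paired analysis was possible because the deposited scores carry no replicates. The alternatives planned for probe tests (background, normalization, filter, processed values, replicate number, each array left out) were not run, since no table used here pairs probes with genes.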
